A study of Mus musculus with 20 samples.

Results

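The genes of the proteasome subunits were followed in kidney RNA of mice. Members were all probe sets annotated to a single gene whose symbol is Psma, Psmb, Psmc, Psmd or Psme followed by a number, without the interferon-induced Psmb8 and Psmb9. There were 49 such probe sets, of 38 genes, among 12422 probe sets that are not controls. Of these, 43 probe sets of 36 genes passed a filter on mean intensity and were tested. The 6 that did not were dim, and they included the only probe sets of Psmd2 and Psmc4, a base scaffold and a base ATPase, so those genes have no test. The symbols Psmc3ip and Psme3ip1 begin with the same letters but are not subunits and were left out, and Psme2, the partner of Psme1, was on probe sets that name 2 genes. Psmd5, Psmd9 and Psmd10 fit the rule but encode chaperones that help assemble the base, and they are described as such.

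The proteasome is the protease complex that degrades proteins tagged with ubiquitin. Its barrel-shaped core is built of alpha and beta subunits, encoded by Psma and Psmb genes, and the beta ring holds the cutting sites. A cap, with a base that unfolds substrates (Psmc ATPases and some Psmd genes) and a lid that takes off ubiquitin (other Psmd genes), controls entry, and separate activators (Psme genes) can bind the same place; interferon exchanges some beta subunits for inducible ones. The subunit genes are known to be induced together when proteasome activity falls, through the transcription factor encoded by Nfe2l1, while that encoded by Nfe2l2 can raise some of them under oxidative stress.

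The study set normal mice against Hyp mice, which model X-linked hypophosphatemia through loss of Phex, on a control diet or a low phosphate diet. All mice were C57BL/6J, and each of the 20 arrays held pooled kidney RNA of 3 mice. Each of the 4 groups (normal on control diet, normal on low phosphate diet, Hyp on control diet, Hyp on low phosphate diet) had 5 arrays. Males and females, and 3 or 5 days of diet, were spread over the groups; ages and the phosphate content of the diets are not given in the sources used here. The titles number the arrays 01 to 20, and these numbers run in 6 sets: 01 to 04 (males, 5 days), 05 to 08 (females, 5 days), 09 and 10 (Hyp males, 5 days), 11 to 14 (males, 3 days), 15 to 18 (females, 3 days), and 19 and 20 (normal males, 5 days). The sets of 4 hold 1 array of each group. The labels do not say what else the arrays of a set share. Whole kidney mixes cell types, and fewer cells of a type and less RNA per cell cannot be told apart.

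All arrays read as kidney: proximal tubule markers summed to 23778 to 39583 intensity units and thick ascending limb and distal tubule markers to 23909 to 32516 over the 4 groups. Arrays 05 to 08 stood apart. Their ratio of 3′ to 5′ actin signal, which rises when RNA is degraded, was 1.739 to 2.607, against 1.218 to 1.983 on the other 16 arrays, so the ranges overlapped. Their median rank correlation with the remaining arrays was 0.8347 to 0.8979, against 0.9148 to 0.9563. Results that rest on these arrays are therefore given with and without them, and their RNA quality was not tested as a cause.

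The promoters of the members the results turn on are shown with motifs of factors known to act on subunit genes. Of the 38 genes, 32 had a window in the RefSeq promoter table (mouse GRCm38.p6; 250 bases before to 50 after the start). Psmb1, Psmb2, Psmb7, Psmc3, Psmd3 and Psmd7 were not matched. The core of the antioxidant response element, TGACNNNGC on either strand, which the factors of Nfe2l1 and Nfe2l2 bind, was in the windows of 6 members, namely Psmb5, Psmb6, Psmd9, Psme4, Psmd12 and Psmc6. That was 17.6% of 34 member windows against 12.4% of all 32851 windows. The CCAAT box, CCAAT on either strand, was in 12 member windows (35.3%, against 37.4% of all windows). Neither share is a result about the members; the matches are letters only. The lines below give the strand on which each gene is read, 5′ to 3′, up to the base before the start, with the motif in capitals. Psmb5 and Psmb6, core catalytic subunits, and Psmd9, a base chaperone, carry the antioxidant response element core. Psmd14 (where the box is read on the other strand) and Psmc1 are a lid and a base gene described in detail in the comparisons that follow, and each carries a CCAAT box.
Psmb5, chr14:54617996-54618095, minus strand: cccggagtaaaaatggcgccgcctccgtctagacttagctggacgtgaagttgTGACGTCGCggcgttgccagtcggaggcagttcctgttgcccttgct
Psmb6, chr11:70525257-70525356, plus strand: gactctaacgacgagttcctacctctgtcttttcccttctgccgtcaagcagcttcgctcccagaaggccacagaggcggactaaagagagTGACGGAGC
Psmd9, chr5:123228090-123228189, plus strand: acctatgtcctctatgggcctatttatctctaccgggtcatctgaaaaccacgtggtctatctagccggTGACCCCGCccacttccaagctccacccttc
Psmd14, chr2:61711494-61711693, plus strand: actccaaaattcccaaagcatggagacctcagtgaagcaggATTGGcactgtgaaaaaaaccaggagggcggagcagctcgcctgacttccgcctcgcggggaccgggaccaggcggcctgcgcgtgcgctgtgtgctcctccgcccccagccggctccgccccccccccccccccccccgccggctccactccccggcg
Psmc1, chr12:100110002-100110201, plus strand: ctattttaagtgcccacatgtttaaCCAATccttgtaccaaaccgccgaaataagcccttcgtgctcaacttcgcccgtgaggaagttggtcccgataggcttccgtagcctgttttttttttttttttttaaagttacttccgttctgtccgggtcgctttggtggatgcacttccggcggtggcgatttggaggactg

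Values are intensities on a linear scale as the authors deposited them, and differences are log2 differences of intensity plus 38 units, so a change of a dim probe set is understated. Mean intensity over the 20 arrays ran among the tested members from 121.4 (the dimmer probe set of Psmb4) to 4169 (Psma3, an alpha ring subunit). Intensities of different probe sets cannot be ordered, since each probe set has its own response. A median of 74.04% of a member's variance over the arrays lay between the 6 array sets, against 56.54% for all tested probe sets. Between the 4 groups it was 9.288%, against 11.25%. Psmc1, the ATPase subunit Rpt2, had 97.36% between sets and 8.62% between groups. At the other end, Psmb7, the trypsin-like core subunit, had 13.31% between sets and 39.08% between groups. The typical member thus varied more between sets than between groups, with Psmb7 an exception.

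**Figure D1:**
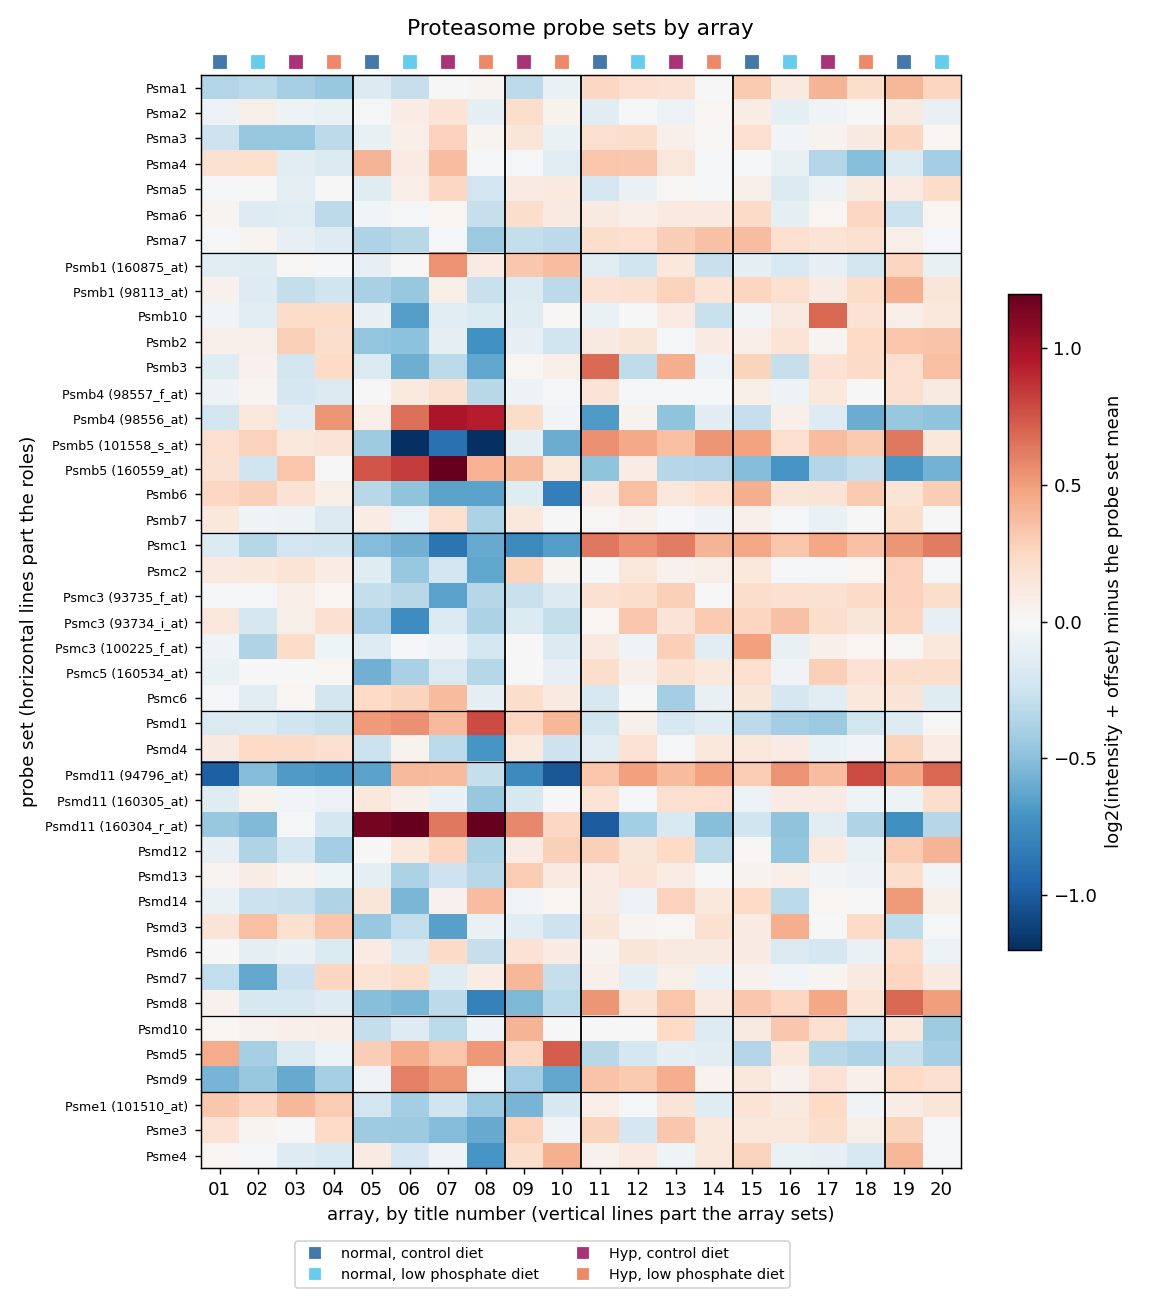
Each row is a tested proteasome probe set, each column an array in order of its title number, and colour is the log2 value minus the row mean; squares above mark the 4 groups. Arrays 01 to 10 and 11 to 20 do not overlap in Psmc1, Psmd8 and the dimmer Psmb1 row, and arrays 05 to 08 are above all others in the dimmer Psmb5 row and the dimmest Psmd11 row.

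The low phosphate diet changed no subunit gene by the test. In normal mice 0 of 43 members were lower and 0 higher at an adjusted p under 0.05 (limma, Benjamini-Hochberg over all 8695 probe sets), where 0.0920% of all tested probe sets were lower and 0.0920% higher. In Hyp mice 0 were lower and 0 higher, against 0.115% and 0.0345%. At an unadjusted p under 0.05 there were 2 members in normal mice (Psmd14 lower, against 4.43% of all probe sets; the dimmer Psmb4 probe set higher, against 4.13%) and 0 in Hyp mice (2.14% lower and 2.45% higher of all). Most differences were small and below 0. In normal mice 32 of 43 members had a negative difference, where 47.7% of all probe sets did, with a median of -0.07 against 0.01. In Hyp mice 35 of 43 did, where 48.8% of all did, with a median of -0.09 against 0.00. Averaged over the genotypes 0 members were called lower, against 0.299% of all, and 0 higher, against 0.173%. There 36 of 43 were negative, where 47.1% of all were, with a median of -0.08. In Hyp mice 3 members (the dimmest Psmc3 probe set, Psmd13 and Psma4) were lower in every set, against 3.76% of all, and 0 were higher, against 4.04%; none had groups without overlap, against 0.207% lower and 0.219% higher. Over both genotypes 0 members were lower in every set, against 0.909%, and 0 higher, against 0.702%. At an unadjusted p under 0.05 there were 2 lower over both genotypes (the dimmest Psmc3 and the brighter Psmb5 probe set), against 4.77%, and 0 higher, against 4.98%. The typical standard error of a member's difference was 0.13 within a genotype. It is the error of single probe sets, and the error of the median was not estimated.

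The shift was uneven over the array sets. In normal mice the median of the members within a set was -0.01 in arrays 01 to 04, 0.01 in 05 to 08, 0.01 in 11 to 14, -0.10 in 15 to 18 and -0.09 in 19 and 20. It was thus near 0 in 3 sets. In Hyp mice the median was below 0 in all 5 sets, at -0.02, -0.30 (arrays 07 and 08), -0.11 (arrays 09 and 10), -0.03 and -0.03. Array 08 had the lowest level of the members of all arrays, with a median deviation of -0.27 and 33 of 43 members below their own mean. Without arrays 05 to 08 the Hyp median was -0.05, with 31 of 43 negative.

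By role, the alpha ring, which gates the core, had 6 of 7 members negative in normal mice (median -0.06) and 7 of 7 in Hyp mice (-0.07). The beta ring had 8 of 11 probe sets negative in normal mice and 10 of 11 in Hyp mice, with medians of -0.08 and -0.12. The ATPase ring of the base had 7 of 7 and 5 of 7 (-0.11 and -0.05), and the other base subunits, Psmd1 and Psmd4, 0 of 2 and 1 of 2. The lid had 6 of 10 and 7 of 10 (-0.10 and -0.08). The 3 activator probe sets, of Psme1, Psme3 and Psme4, were negative in both genotypes (-0.18 and -0.10), and the 3 assembly chaperones split 2 to 1 in each. None of these passed the test.

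**Figure D2:**
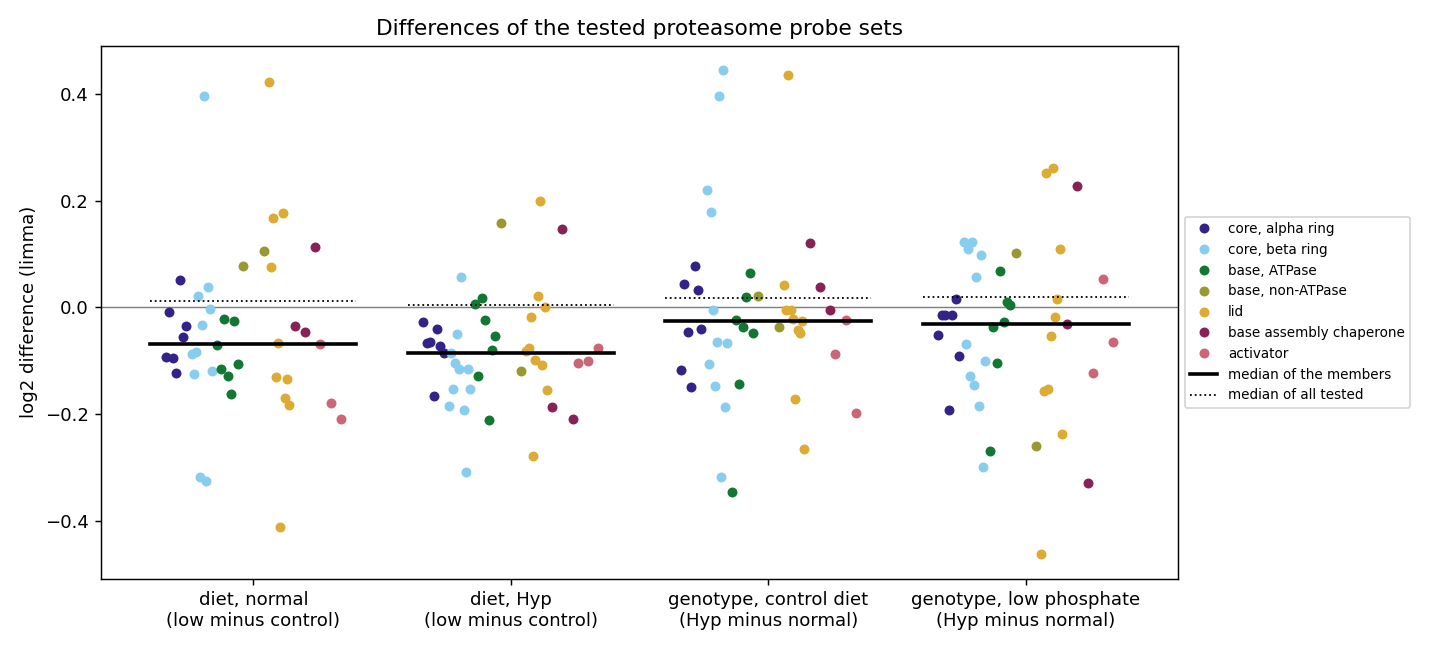
Points are the log2 differences of the 43 tested proteasome probe sets, coloured by role, in the 4 comparisons of diet and genotype; solid lines are the members' medians and dotted lines the medians of all tested probe sets. Both diet medians (-0.07 and -0.09) lie below those of all probe sets, and no point passed the test.

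Psmd14 encodes the lid enzyme that cuts ubiquitin chains off substrates. In the order of the title numbers, its intensity in normal mice on control diet was 656, 773, 747, 827 and 1008, and on low phosphate diet 574, 463, 660.2, 546 and 731. Each low phosphate array was below the control array of its own set, though the groups overlapped. The difference was -0.41 (SE 0.15, n = 5 arrays a group; limma adjusted p = 0.4123), the smallest p among the members. It was lower in 5 of 5 sets, as was Psmd8, and 7.00% of all probe sets were lower in every set; 1 member, the brightest Psmd11 probe set, was higher in every set, against 7.13%. No member had groups that did not overlap, against 0.748% of all probe sets lower and 0.805% higher. In Hyp mice it was 569.9, 722, 679, 852 and 709 on control diet against 533, 911, 708, 762 and 694 on low phosphate diet, a difference of 0.02 (SE 0.15; limma adjusted p = 0.9984). The test of the change in diet response between genotypes gave 0.43 (SE 0.22; limma adjusted p = 0.9998).

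The brighter probe set of Psmb5, the chymotrypsin-like core subunit that proteasome inhibitors target, was 2005, 1287, 2561, 2446 and 2716 in normal mice fed the control diet. Under low phosphate it was 2118, 706, 2392, 2009 and 1919.8. It was lower in 4 of the 5 pairs, by 0.33 in the fit (log2 difference -0.33, SE 0.16; limma adjusted p = 0.6132). The dimmer Psmb5 probe set gave 0.04 (SE 0.19) for the same contrast. Psmb7, which cuts after basic residues, was 1565, 1524, 1447, 1488 and 1654 on control and 1378, 1353, 1479, 1408 and 1434 on low phosphate diet in normal mice. The groups overlapped only through the arrays of set 11 to 14, and the difference was -0.12 (SE 0.10; limma adjusted p = 0.818); in Hyp mice it was -0.15 (SE 0.10; limma adjusted p = 0.9984). Other members with the smallest p were Psmb3, a structural beta subunit (-0.32 in normal mice), and Psmd12, a lid subunit (-0.28 in Hyp mice). On the positive side were the brightest Psmd11 probe set, of a lid subunit (0.42 in normal mice, higher in 5 of 5 sets), and Psmd3, also of the lid (0.18 in normal and 0.20 in Hyp mice).

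The other subunits looked at by role were close to 0. Psma3, of the alpha ring, ran from 3003.5 to 5007.9 over the arrays. It differed by -0.10 (SE 0.14) under the diet in normal mice and by -0.06 (SE 0.14) in Hyp mice. Its 4 lowest values were those of arrays 01 to 04. The ATPases Psmc2, Psmc5 and Psmc6 gave -0.12, -0.03 and -0.11 in normal mice and -0.13, -0.08 and -0.05 in Hyp mice. The brightest Psmc3 probe set gave -0.02 and 0.02, and its dimmest -0.16 and -0.21, the last the smallest p in Hyp mice (SE 0.12; limma adjusted p = 0.9984). Psmd7, the inactive partner of Psmd14, gave -0.13 and 0.00. Psme3 gave -0.18 (SE 0.10; limma adjusted p = 0.6569) in normal and -0.10 in Hyp mice.

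Between genotypes no member passed either. On control diet 0 of 43 were lower in Hyp mice and 0 higher (limma, adjusted p under 0.05), against 0.0920% and 0.161% of all probe sets. On low phosphate diet it was 0 and 0, against 0.150% and 0.207%. The change in diet response with genotype called 0 lower and 0 higher, against 0.0460% and 0% of all. Averaged over the diets 0 were lower and 0 higher, against 0.506% and 0.771%. At an unadjusted p under 0.05 there were 0 lower (against 3.48%) and 2 higher (against 5.06%) on control diet, and 1 lower (against 4.14%) and 0 higher (against 5.32%) on low phosphate diet. For the interaction there were 0 lower (against 1.60%) and 0 higher (against 1.63%), and over both diets 3 lower (against 6.33%) and 1 higher (against 8.65%). Negative differences numbered 29 of 43 on control diet (46.5% of all probe sets; median -0.03 against 0.02) and 27 of 43 on low phosphate diet (45.8% of all; median -0.03 against 0.02). Within sets the median of the members ran from -0.05 to 0.06 on control diet and from -0.12 to 0.06 on low phosphate diet. The direction was not the same in every set. On control diet 5 members were lower in Hyp mice in every set (the brighter Psmb5 probe set, Psme4, Psmc1, Psmb3 and Psma4), against 7.89% of all, and 4 higher, against 8.83%. On low phosphate diet 2 were lower (Psmd4 and Psma4), against 8.07%, and 1, the ATPase Psmc5, higher, against 9.98%. No member had groups without overlap on either diet, against 0.253% lower and 0.518% higher of all on control diet and 0.311% and 0.518% on low phosphate diet. For the interaction 25 of 43 members were negative, where 50.3% of all were; 3 were lower in every set, against 6.13%, and 3 higher, against 7.37%.

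Psma4, an alpha ring subunit, was lower in Hyp mice in every pair that a set allows. On control diet the normal arrays of the 4 complete sets gave 3333, 3893, 3703 and 2877, and the Hyp arrays of those sets 2654, 3788, 3211 and 2284. On low phosphate diet they gave 3345, 3143, 3674 and 2749.6 against 2596, 2901, 2878 and 2048. Hyp was thus lower in 8 of 8 pairs, which 1.38% of all probe sets were. In the fit over both diets, which also holds the unpaired arrays 09, 10, 19 and 20, the difference was -0.17 (SE 0.08; limma adjusted p = 0.3531). With array weights, which count noisy arrays less, it was -0.27 (SE 0.07; limma adjusted p = 0.04273), the 1 member called in that fit. The same fit called 187 of the 8695 tested probe sets. The unpaired arrays went the other way, with 2893.9 and 2680.3 on Hyp arrays 09 and 10 and 2597.3 and 2199 on normal arrays 19 and 20. The level of Psma4 also differed by set, from 2048 to 3893 over all arrays, and its 3 lowest values were those of arrays 17, 18 and 20.

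Psmc1, Psmb6 and Psmb5 had the smallest p in the other members lower in Hyp mice. Their differences over both diets were -0.31, -0.24 and -0.25 for the brighter Psmb5 probe set (limma adjusted p = 0.3093, 0.3173 and 0.3211). That fit also holds the unpaired arrays, Hyp 09 and 10 and normal 19 and 20. Psmc1 read 361.5 and 391.8 on arrays 09 and 10, and 941.4 and 1009.4 on arrays 19 and 20. In the complete sets on control diet normal mice had 567.9, 434.2, 1016.4 and 899.1, and Hyp mice 542.5, 332.1, 1003.8 and 898.1. On low phosphate diet they had 498.2, 418.3, 952 and 819.2 against 537.6, 407.4, 861.1 and 829.1, so the direction differed by set. Psmb6, the caspase-like core subunit, was 1736, 1148, 1563, 1989 and 1632 in normal mice on control diet and 1648, 920.0, 1315, 1605 and 1627 in Hyp mice. On low phosphate diet it was 1779.7, 1028, 1879.5, 1611 and 1800.4 against 1531, 919, 806, 1669 and 1818. The lowest values were those of arrays 05 to 08 and of array 10, and the groups overlapped. Psmd4, the base receptor for ubiquitin chains, was 1204, 1045, 1149, 1093 and 1086 in normal and 1175, 608, 849.9, 1110.2 and 994 in Hyp mice on low phosphate diet, lower in each of the 4 sets. Its difference was -0.26 (SE 0.12; limma adjusted p = 0.5026).

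Probe sets of the same gene often went opposite ways. In both genotype comparisons all 5 genes with several tested probe sets (Psmb1, Psmb4, Psmb5, Psmc3 and Psmd11) had differences of unlike sign. For Psmb5 on control diet the brighter probe set gave -0.32 (SE 0.16) in Hyp minus normal and the dimmer 0.44 (SE 0.19; limma adjusted p = 0.5574). The dimmer one was 397, 608, 235, 228 and 197 in normal and 445, 985, 461, 265 and 262 in Hyp mice, highest in array 07. For these genes a direction depends on which probe set is read.

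Psmb10 and Psme1 are members that interferon is known to induce. Psmb10, an inducible catalytic subunit, was 489, 469, 473, 488 and 528 in normal and 591, 456, 447, 538 and 828 in Hyp mice on control diet. Array 17 alone reached 828, and Psmb8 and Psmb9, the inducible subunits left out of the members, had their highest values, 758 and 407, on that array too. The genotype difference of Psmb10 was 0.18 (SE 0.13; limma adjusted p = 0.7258). On array 17 the median deviation of 10 interferon-response genes was 0.81, the highest of the 20 arrays. Psme1, an activator subunit, read 1435 on that array, the highest of arrays 11 to 20 but below each of arrays 01 to 04. Over the group it ran from 809 to 1609, and its difference was -0.09 (SE 0.15; limma adjusted p = 0.894).

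**Figure D3:**
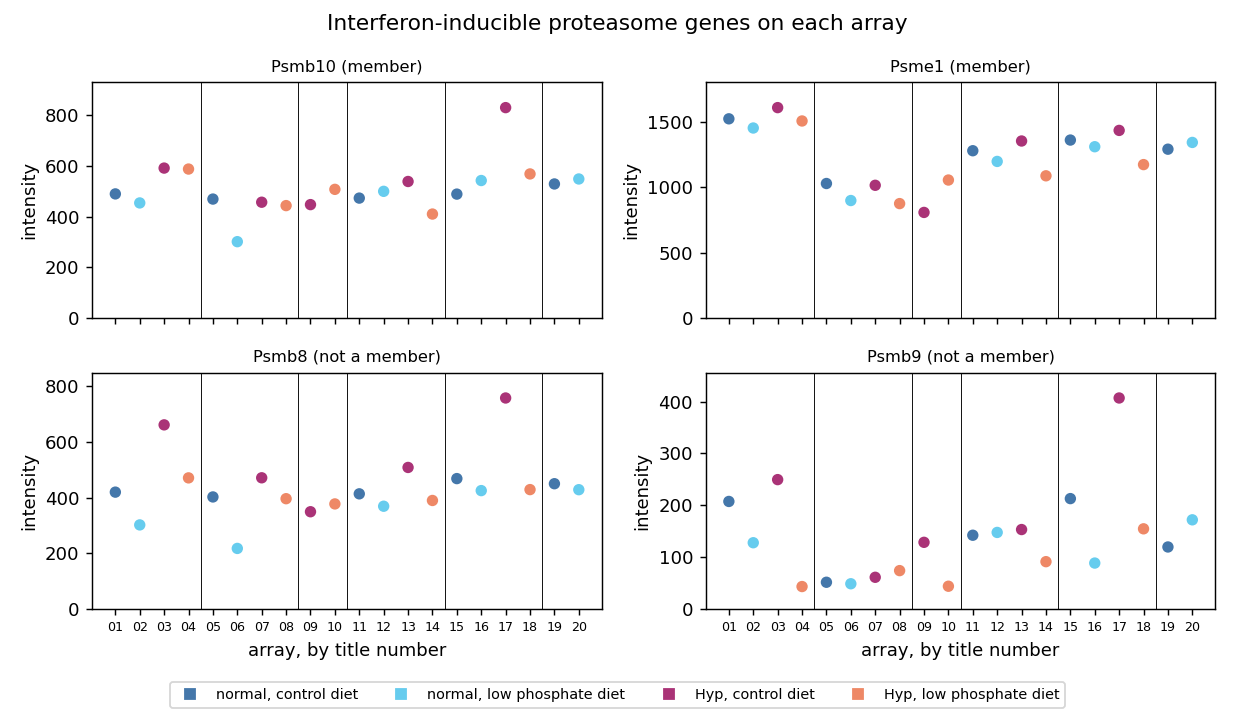
Points are intensities on each array, in order of title number and coloured by group, of the members Psmb10 and Psme1 and of Psmb8 and Psmb9, which are not members. Array 17, a Hyp pool on control diet, has the highest Psmb10, Psmb8 and Psmb9 values (828, 758 and 407).

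Among the 9 comparisons the largest differences of the members were between days of diet, nearly the same split as the array number. For 3 days minus 5 days of diet, 15 of 43 members were called higher and 6 lower (limma, adjusted p under 0.05), against 20.2% and 20.7% of all probe sets; the median was 0.14 against -0.01. By log2 difference the members higher at 3 days were Psmc1 0.88, the brighter Psmb5 probe set 0.86, the brightest Psmd11 probe set 0.70, Psmd8 0.57, Psmb6 0.48, Psma7 0.44, the second Psmc3 probe set 0.44, the brightest Psmc3 probe set 0.38, the dimmer Psmb1 probe set 0.36, Psma1 0.34, Psmb3 0.32, Psme3 0.32, Psmc5 0.32, Psmd3 0.31 and Psmb2 0.27. The members lower at 3 days were the dimmest Psmd11 probe set -0.92, the dimmer Psmb5 probe set -0.77, the dimmer Psmb4 probe set -0.58, Psmd1 -0.50, Psmd5 -0.42 and the brighter Psmb1 probe set -0.24. Their limma adjusted p ran from 1.17e-04 to 0.0449. Different probe sets of Psmb1, Psmb5 and Psmd11 were thus called in opposite directions.

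Some markers of cell types were also called in the same comparison. Of 26 tested marker genes, 5 were called higher at 3 days (limma, adjusted p under 0.05): Slc34a1 and Aqp1 of the proximal tubule (0.23 and 0.42), Slc12a3 of the distal tubule (0.26), Aqp2 of the collecting duct (0.62) and Csf1r of macrophages (0.50). Another 3 were lower: Adipoq of adipocytes (-1.58), Cd79a of B cells (-0.76) and Myh4 of skeletal muscle (-0.77). Other genes of these lists were not called and went both ways. They were Lrp2 (-0.19), Cubn (0.14) and Slc22a6 (0.105) of the proximal tubule, and Umod (0.19), Slc12a1 (-0.08) and Calb1 (0.15) of the next segments. Macrophage markers Lyz2 and Cd68 gave -0.22 and 0.06, Fabp4 of adipocytes 0.13 and Ckm of muscle -0.05. The collecting duct and lymphocyte lists had 1 tested gene each. Over all probe sets 20.2% were called higher and 20.7% lower, so the number of calls was no trait of the markers. Summed over the list genes on the array, adipocyte markers were 499.3 to 832.8 at 3 days and 519.5 to 1633 at 5 days, and proximal tubule markers 30541 to 39583 and 23778 to 37527. Lymphocyte markers were 195.4 to 340.9 and 169.5 to 842.2, muscle markers 255.1 to 383.4 and 262.8 to 1524, and macrophage markers 1335 to 1669 and 986.4 to 1512. The sums overlapped between days in each of these lists, and no called marker was at 0 on any array. Cd79a was 250.6 to 623.3 on arrays 05 to 08 and 63.3 to 171.7 on the others. Myh4 was 312.8 to 1287.6 there and 117.9 to 258.6 on the others. Adipoq read 261.4 and 508.1 on arrays 19 and 20, of 5 days. It was 471.7 to 1327.1 on arrays 01 to 10 and 185.8 to 497.9 on the 3-day arrays. Without arrays 05 to 08 the days comparison called 26 of all tested probe sets. The part of the markers in the members' differences was not tested.

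All 3-day arrays are among numbers 11 to 18, so days and number are nearly the same split, and only arrays 19 and 20, of 5 days, set them apart. Psmc1 was 332 to 568 (median 426.2) on arrays 01 to 10 and 819 to 1016 (median 920.2) on arrays 11 to 20, with no overlap. Arrays 19 and 20 read 941 and 1009, inside the range of the 3-day arrays and above every other 5-day array. With number (01 to 10 or 11 to 20) and days in 1 fit, a term added after the data were seen, the difference of Psmc1 by number was 0.89 (SE 0.16; limma adjusted p = 0.005612) and by days 0.10 (SE 0.16; limma adjusted p = 0.8173).

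Another 2 probe sets had no overlap between arrays 01 to 10 and 11 to 20. Psmd8, a lid subunit, ran from 436 to 826 and from 865 to 1306, and the dimmer Psmb1 probe set, of a structural beta subunit, from 1024.5 to 1494 and from 1517 to 1926. With Psmc1 that made 3 of 43 members higher without overlap and 0 lower, against 2.50% and 2.29% of all probe sets. In the fit with both terms 6 members were higher on arrays 11 to 20 (Psmc1, Psma1, Psmd8, Psmd9, Psmd14 and the brightest Psmd11 probe set) and Psma4 was lower, against 3.39% and 4.13% of all probe sets. The brightest Psmd11 probe set differed most, by 1.39 (SE 0.20; limma adjusted p = 0.001883). Days in that fit called 0 members higher and 0 lower, against 0.161% and 0.0230% of all, with a median of 0.02. Not every large difference went with number in that fit. The dimmest Psmd11 probe set gave -0.28 by number and -0.67 by days, and the brighter Psmb5 probe set 0.24 and 0.655. None of these was called. The mean of arrays 19 and 20 lay nearer to the 3-day males than to the other 5-day males for 30 of 43 members, where it did for 72.2% of all probe sets, so this was no trait of the members.

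**Figure D4:**
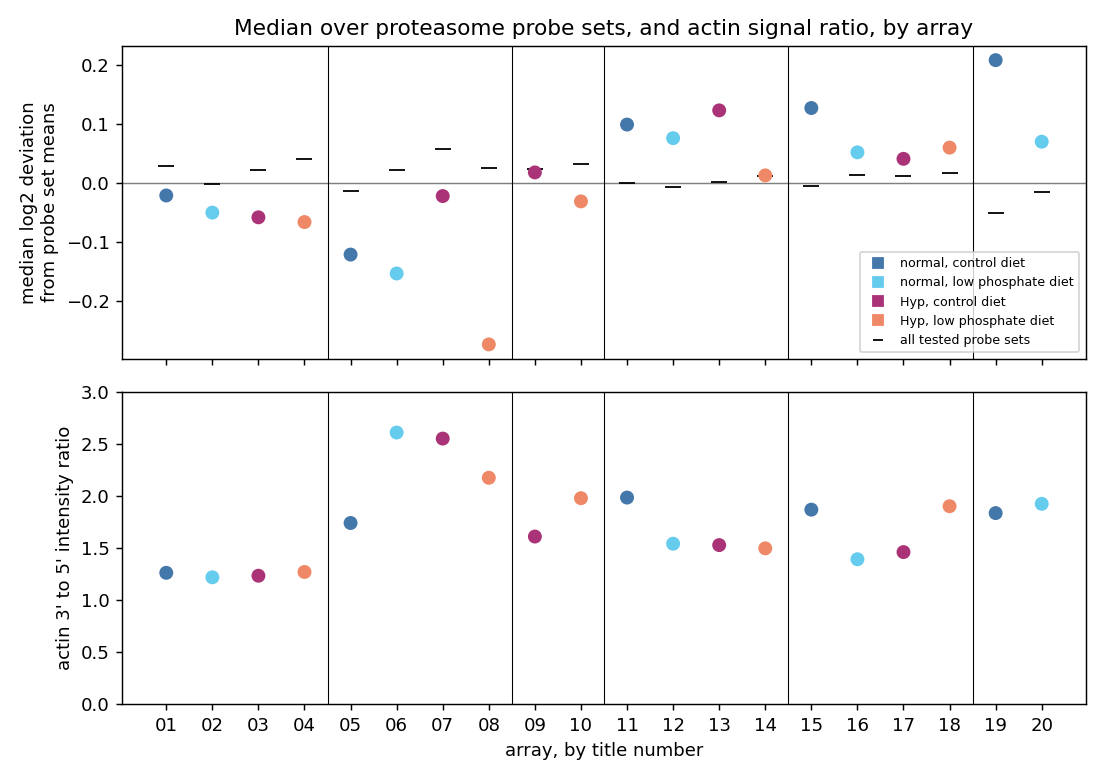
The upper panel gives, for each array, the median deviation of the members' log2 values from their means over the arrays, with dashes for all tested probe sets; the lower panel gives the actin 3′ to 5′ ratio. The members lie at or below 0.02 on arrays 01 to 10 and above 0.01 on arrays 11 to 20, with array 08 lowest (-0.27) and array 19 highest (0.21).

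Between the sexes 4 members were lower in females and 1 higher (limma, adjusted p under 0.05), against 8.67% and 7.95% of all probe sets. The lower ones were the brighter Psmb5 probe set (-0.63, SE 0.12; adjusted p = 0.002633), Psme3, which activates the nuclear proteasome (-0.30), the ATPase Psmc2 (-0.26) and the lid subunit Psmd13 (-0.22). The higher one was the dimmest Psmd11 probe set (0.80, SE 0.15; limma adjusted p = 0.002737). All of these rest on arrays 05 to 08, the females of 5 days: without those arrays the sex comparison called 0 members and their adjusted p ran from 0.8936 to 0.9969. The days comparison without them also called 0 members, with a median of 0.06. Without these arrays the sex comparison called 19 and the days comparison 26 of all tested probe sets.

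Arrays 05 to 08 held the extreme values of several members. The brighter Psmb5 probe set was 1287, 706, 917 and 589 there and 1137 to 2716 on the other 16 arrays, where array 10 alone was below array 05. The dimmer Psmb5 probe set went the other way, at 608, 647, 985 and 472 against 197 to 461. The dimmest Psmd11 probe set was 852, 966, 585 and 1224 against 162 to 561. Psmd1, the large base scaffold, was 2091, 2148, 1923 and 2529 there; array 10, at 1932, lay within that range, and array 09 read 1734. In all, 2 members were above and 5 below every other array on all 4 of these arrays (below were probe sets of Psmc2, Psmc3, Psmc5, Psmd13 and Psme3), against 4.98% and 4.63% of all probe sets.

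**Figure D5:**
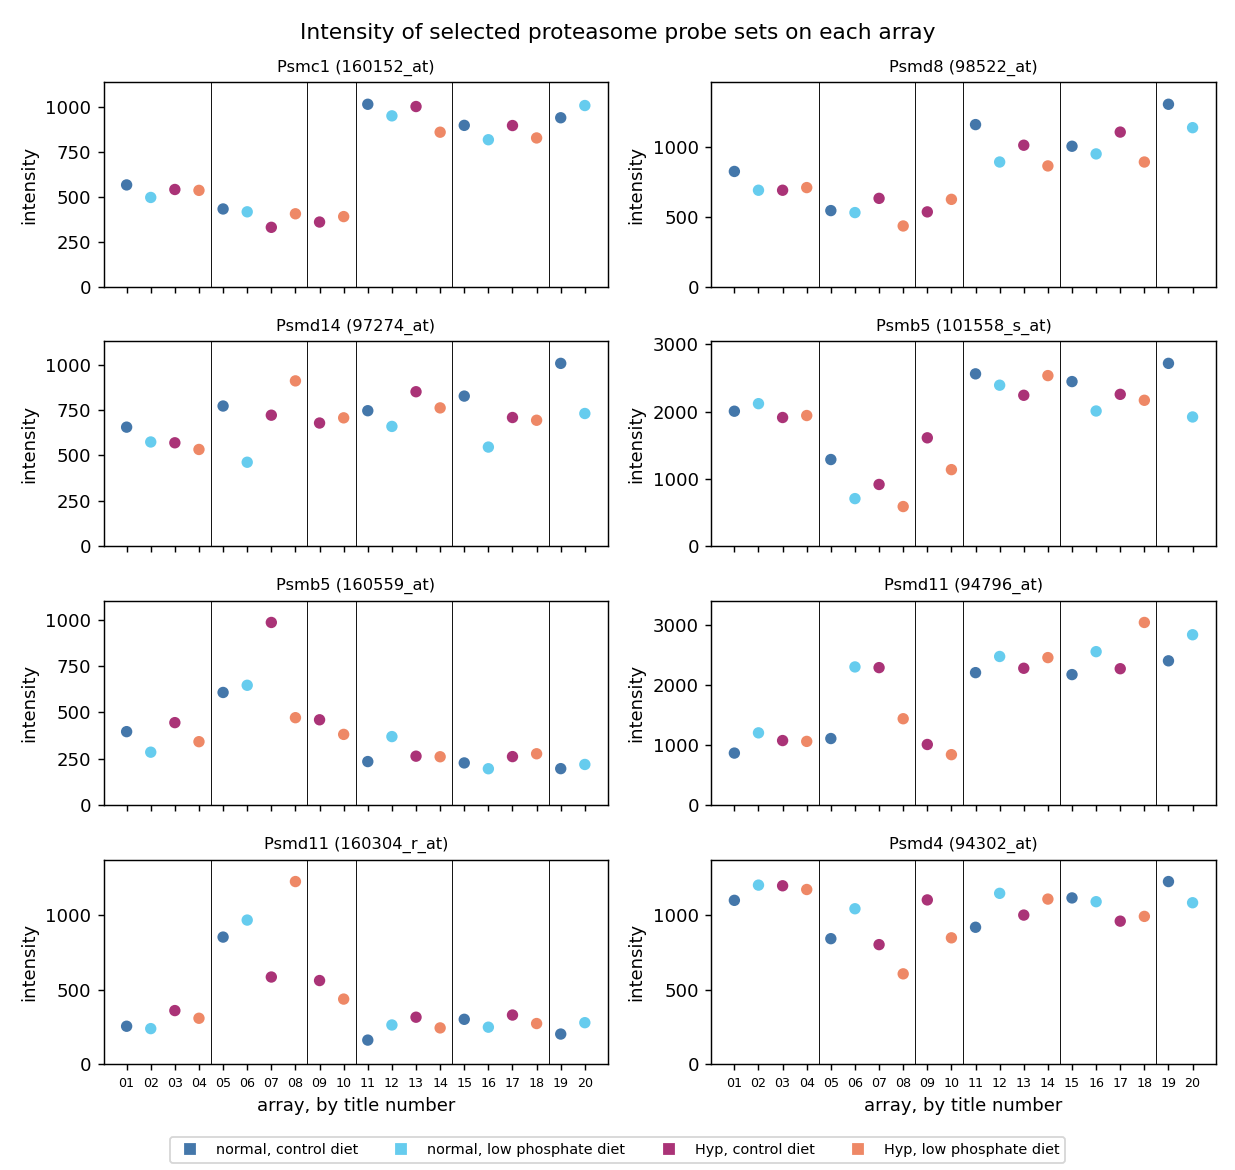
Points are intensities of 8 proteasome probe sets on each array, in order of title number and coloured by group, with each axis starting at 0 and vertical lines between array sets. Psmc1 and Psmd8 do not overlap between arrays 01 to 10 and 11 to 20, the dimmer Psmb5 and the dimmest Psmd11 probe sets are above all other arrays on arrays 05 to 08, and Psmd14 is lower on low phosphate diet in each normal pair.

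Other genes of the pathway, on lists of assembly factors, bound enzymes, shuttle factors, ubiquitin-conjugating enzymes, transcription factors, chaperones and antigen processing, gave 68 tested genes. Of these 0 were called in the diet comparisons within either genotype and 0 in the genotype comparisons within either diet. Of all probe sets 0.0920% were called lower and 0.0920% higher for diet in normal mice, and 0.115% and 0.0345% in Hyp mice. For genotype it was 0.0920% and 0.161% on control diet, and 0.150% and 0.207% on low phosphate diet. The ubiquitin genes themselves were not analysed here. Negative differences numbered 45 of 68 on the low phosphate diet in normal mice and 43 of 68 in Hyp mice, with medians of -0.08 and -0.07. Of all probe sets 47.7% and 48.8% were negative, with medians of 0.012 and 0.005. Of the assembly factors (5 tested), Psmg2, which pairs the alpha ring, had the smallest p between genotypes, -0.70 (SE 0.21; limma adjusted p = 0.3135) on control diet. Pomp, the core maturation factor, gave -0.23 (limma adjusted p = 0.9984) for diet in Hyp mice. Of the bound enzymes (4 tested), Usp14, which trims ubiquitin at the base, gave 0.14 and Ecpas, which holds core and cap together, -0.18 for genotype on control diet. Of the shuttle factors (7 tested), the unfoldase Vcp gave -0.15 and its cofactor Ufd1 0.14 for diet in normal mice, and Ufd1 gave 0.37 and Rad23b 0.20 in Hyp mice. Of the conjugation enzymes (15 tested), Ube2n gave -0.24 and Ube2e1 -0.36 for diet in normal mice. Of the cytosolic chaperones (13 tested), 10 had a negative difference on low phosphate diet in normal mice and 9 in Hyp mice, against 47.7% and 48.8% of all. Hsph1 gave -0.49 (SE 0.12; limma adjusted p = 0.1552) and Hspa4 -0.45 (SE 0.13; limma adjusted p = 0.2743) in normal mice. Of the 2 inducible core subunits, Psmb9 gave -0.89 (SE 0.28; limma adjusted p = 0.761) and Psmb8 -0.34 for diet in Hyp mice. On the antigen processing list, 12 of 13 genes had a positive genotype difference on control diet and none was called. Of all probe sets 46.5% were negative there. Tap1, a peptide transporter, gave 0.54 and Gbp2, an interferon-induced GTPase, 0.64.

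Of the transcription factors of subunit genes (9 tested), 1 was called between genotypes over both diets and 0 in the diet comparisons. Between genotypes over both diets 0.771% of all probe sets were called higher and 0.506% lower. Nfe2l2 was higher in Hyp mice over both diets by 0.31 (SE 0.07; limma adjusted p = 0.02315). Its intensity in normal mice was 1336, 1599.9, 1317, 1751 and 1372 on control diet and 1397, 1797, 1138, 1538 and 1277 on low phosphate diet. In Hyp mice it was 1492, 2159.5, 1795, 1763 and 1997 and then 1531, 1918, 1785, 1634 and 2001. Each Hyp array of a complete set was above the normal array on the same diet, though the groups overlapped. Of the 6 members whose promoter holds the motif shown above, the brightest probe sets had differences over both diets of -0.25 (Psmb5), -0.24 (Psmb6), -0.17 (Psmd9), -0.13 (Psme4), -0.08 (Psmd12) and -0.02 (Psmc6). All 6 were negative and none was called, and the dimmer Psmb5 probe set gave 0.27. These fits also hold the unpaired Hyp arrays 09 and 10 and normal arrays 19 and 20. There the brighter Psmb5 probe set read 1609.9 and 1137.1 against 2716.4 and 1919.8, and Psmd9 467.7 and 400.7 against 760.5 and 732.7. Psmc6 went the other way, with 3337.6 and 3097.2 against 3210.6 and 2594.4. In the complete sets on control diet Psmd9 was 422.1, 620.2, 819 and 706.7 in normal and 406, 929.4, 875.3 and 725.5 in Hyp mice. On low phosphate diet its sets also went both ways. Of the brightest probe sets of the 36 tested genes 24 were negative, and of all 43 members 27, where 44.8% of all probe sets were. With a term for arrays 11 to 20, chosen after seeing the data, 20 of 43 members were negative. A link between the differences of the 6 genes and Nfe2l2 was not tested. Nfe2l1, the other factor, gave 0.13 for diet in normal mice. Between the sexes Nfe2l2 was higher in females by 0.32 (SE 0.07; limma adjusted p = 0.005225). Between days Foxo4 (-0.43) and Stat3 (-0.42) were lower and Mafg (0.27) higher at 3 days. On arrays 19 and 20, of 5 days, Foxo4 read 976.3 and 982.7. Those values were inside the 3-day range of 967.1 to 1147.2 and below all of arrays 01 to 10. Stat3 read 1046.1 and 903.8 there and Mafg 407.4 and 369.5, also inside their 3-day ranges. Mafg was inside the range of arrays 01 to 10 as well. Days and array number are not separated here for these genes. Over all these pathway lists 2 of 68 genes were lower and 7 higher in females, against 8.67% and 7.95% of all probe sets. At 3 days 11 of the 68 were lower and 14 higher, against 20.7% and 20.2% of all probe sets.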

How the data were processed

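The members, lists and tests were chosen with earlier results of these data known. For every array the authors deposited a linear intensity of each probe set, brought to a common trimmed mean (2% off each end; 500.254 to 500.309). No label names their software. Before log2, 38 units were added, a value equal to the 20th percentile of the whole table. Probe sets whose mean fell below the 30th percentile were dropped, which left 8695 of 12422. With limma 3.58.1 (R 4.3.3), the 4 groups were fitted on 20 arrays beside terms for the 4 combinations of sex and days (13 residual degrees of freedom). Benjamini-Hochberg adjustment was made within each of 9 comparisons, at a threshold of 0.05. The fit was tested on simulated data. Precision is limited by the number of arrays, and the spread is that of pools of 3 mice. Within-set differences subtract arrays of the same set. Values are given for members past the threshold or with the smallest p in a direction, for a fixed set of subunits, and for the 2 smallest p of each other list; Psma4 was chosen after its values were seen. Alternatives were another offset, quantile normalization, other filters, trend and robust variances, array set as a block, array weights and subsets of arrays.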

Additional observations from a re-analysis of the deposited data

Results flagged for a closer look

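In 9 of 172 sets of 5 arrays (a member in a group) 1 array lay far from the other 4 by Dixon's criterion, which is 5.23%; chance gives about 1 in 20. Of these 9, 8 were in arrays 05 to 08. The same count was not made over all tested probe sets, so neither number is a result about the members. Psmb1 (its brighter probe set) read 2229.9 on array 19, against 1690.3 to 1742.1 in the rest of normal mice on control diet. The brighter Psmb5 probe set read 706.4 on array 06, against 1919.8 to 2392, and the dimmer one 985.3 on array 07, against 262.2 to 460.7. Psmc2 read 904.7 on array 08, against 1443.7 to 1503.7. On array 05 Psmd1 read 2090.9, against 1161.1 to 1307.1, and Psme3 572.5, against 855.2 to 949.3. The dimmest Psmd11 probe set read 851.8 on array 05, 965.7 on array 06 and 1223.5 on array 08, where the rest of each group reached 301.4, 278.8 and 436.8.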

How the results depend on the processing

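No member was called in any diet or genotype comparison under the alternatives run, except that array weights called 1 (Psma4) between genotypes over both diets. That fit called 187 of all tested probe sets. Leaving out 1 array at a time also called 0 throughout these. Without arrays 05 to 08 the median of the members between genotypes on control diet was -0.091. With a term for arrays 11 to 20, chosen after seeing the data, the median between genotypes over both diets was 0.008. For all tested probe sets it was 0.012. In that fit 20 of 43 members were negative, where the main fit had 27 and a median of -0.031. The members called between the sexes numbered 0 without arrays 05 to 08, 13 without arrays 09, 10, 19 and 20, 16 at 5 days alone and 0 at 3 days alone, and 4 to 7 with 1 array left out. Of all tested probe sets those fits called 19, 2045, 2231 and 47, and 988 to 1654 with 1 array left out. Members called between days numbered 0 without arrays 05 to 08, 0 in males alone and 0 with a term for arrays 11 to 20, chosen after seeing the data, where the median was 0.022. They numbered 16 to 21 with 1 array left out. Of all tested probe sets those fits called 26, 6 and 16, and 3005 to 3784 with 1 array left out. Psme3 turned to 0.008 between the sexes both without arrays 05 to 08 and at 3 days alone, and Psmb2 to -0.036 between days both without arrays 05 to 08 and in males alone. With the term for arrays 11 to 20, days gave -0.52 for the brightest Psmd11 probe set, -0.26 for Psma1, -0.059 for the dimmer Psmb1 probe set and -0.083 for Psmd8. The cause of these changes was not tested. With the array set as a block, which pairs arrays of different groups by title number, 0 members were called in the 7 diet and genotype comparisons, with medians from -0.085 to -0.014.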
